A study of Mus musculus with 9 samples.

Results

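The semaphorin, ephrin and Slit-Robo guidance genes were examined in cultured mouse calvarial cells labelled as IRE1 knockout or WT. They were taken by symbol and comprise every semaphorin, plexin, neuropilin, ephrin, Eph receptor and Slit gene in the count table, with Robo1 to Robo3 and Srgap1 to Srgap3, 62 genes of 25860 in all. RNA was sequenced from 5 libraries labelled IRE1KO and 4 libraries labelled WT. Both groups were cells of the flat skull bones of newborn mice that carry Osx1-Cre, in which the osterix (Sp7) promoter of the osteoblast lineage drives Cre recombinase. IRE1, encoded by Ern1, is the kinase and endoribonuclease that splices Xbp1 mRNA when the endoplasmic reticulum is under stress, and the labels give the knockout by name only, without the allele. Each library pooled the sorted cells of 3 to 5 pups aged 2 to 4 days, grown with 10% serum to 90% confluence, and the labels call such a pool a biological replicate. The WT cells are described as Osx1-Cre cells too, the culture is of expanded cells rather than bone, and neither the litter nor the sex of the pups is given.

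Semaphorins are secreted, membrane-bound or lipid-anchored ligands that signal through plexins, and most class 3 members need a neuropilin to bind them. Ephrins are membrane ligands of the Eph receptor tyrosine kinases, so that both partners signal at cell contacts. Slits are large secreted proteins that bind Robo receptors, whose cytoplasmic tails recruit the srGAPs, proteins that bend membranes. The families were first known for steering axons. In mouse bone, Sema3a made by osteoblasts restrains osteoclasts through neuropilin-1, Sema4d made by osteoclasts acts on plexin-B1 of osteoblasts, and ephrin-B2 and EphB4 signal between the cell types.

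Total counts were 18784636 to 22028075 per library, and levels are given as CPM (counts scaled to a common library size) scaled by TMM, edgeR's correction for composition. The cultures carried early transcripts of the lineage: Runx2 was at 63.6 to 69.4 CPM in IRE1KO cells and 59.8 to 75.1 CPM in WT, and Col1a1 was at 15462 CPM or more in every library. Sp7 was at 13.6 to 24.6 CPM. Of 7 markers of mature osteoblasts, Mepe and Sost had 0 counts in every library and Bglap was at 0.192 CPM or less. Ibsp, Dmp1 and Phex were at 5.70 CPM or less, while Spp1 was at 688 CPM or more. Acta2 and Col3a1, listed as mural and fibroblast markers, were at 2053 CPM or more and 3933 CPM or more. Ern1 was at 49.8 to 55.8 CPM in IRE1KO cells and 41.5 to 54.2 CPM in WT, a total per gene that neither checks nor contradicts the genotype. WT libraries stood further apart from one another than IRE1KO libraries did, with a variance between pairs of 16.0 to 114 times sampling noise within WT, against 2.07 to 10.1 times within IRE1KO. WT libraries 1 and 4 were the extremes, and results are given with and without them where it matters. Without WT library 1, 8.63% of all tested genes had an adjusted p under 0.05, and without WT library 4, 2.90%. With all libraries it was 0.634% (edgeR). Schwann-cell and glial transcripts also differed between libraries. Sox10, the transcription factor of that lineage, was at 0.679, 0.973, 0.266, 0 and 0.432 CPM in IRE1KO libraries 1 to 5, against 0.970, 4.57, 6.11 and 9.83 CPM in WT libraries 1 to 4. In WT library 1 it was as low as in IRE1KO.

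Of the 62 genes, 56 were abundant enough to be tested. Srgap3 and Plxnb1 fell in IRE1KO cells at an adjusted p under 0.05, and no member rose. That is 2 of 56 tested genes or 3.57%, where 0.634% of all 13712 tested genes passed (0.379% fell and 0.255% rose; edgeR's quasi-likelihood F-test, with p-values adjusted by Benjamini-Hochberg over the whole table). Before adjustment, 17 members (30.4%) had a p under 0.05, against 16.5% of the whole table. Of these, 11 were lower in IRE1KO and 6 higher, where 9.36% and 7.14% of the whole table were. Plxnb3, among the 11, came into the test only through its WT counts. The median log2 fold change was -0.09 over the 56 members and -0.0050 over all tested genes, with 37 members below and 19 above 0. Over all tested genes, 7075 were below and 6637 above 0. Bulk RNA cannot tell fewer cells of a type from less RNA per cell.

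**Figure D1:**
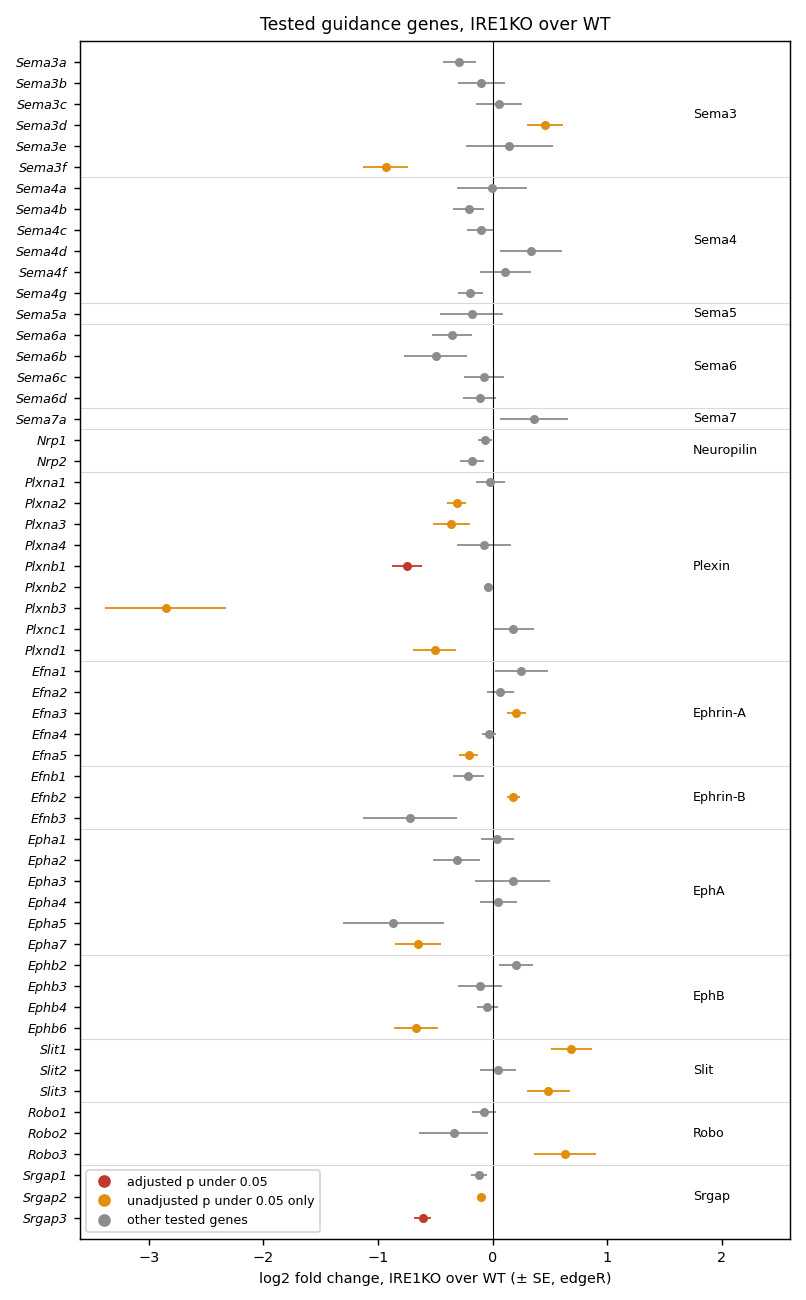
Log2 fold change of the 56 tested guidance genes, IRE1KO over WT, with its standard error as a bar; genes are grouped by family from top to bottom and coloured by test result. Srgap3 and Plxnb1 are the genes past the adjusted threshold, and Plxnb3 lies farthest from 0 at -2.85.

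The upstream sequences of the genes that fell are shown because IRE1 acts on transcription through XBP1, which binds elements holding ACGTG or CCACG. They are credited to RefSeq on GRCm38.p6, end before the earlier of the RefSeq and GENCODE starts, and run 5′ to 3′ on the gene's strand with CpG dinucleotides in capitals.
Srgap3, chr6:112947267-112947516, minus strand: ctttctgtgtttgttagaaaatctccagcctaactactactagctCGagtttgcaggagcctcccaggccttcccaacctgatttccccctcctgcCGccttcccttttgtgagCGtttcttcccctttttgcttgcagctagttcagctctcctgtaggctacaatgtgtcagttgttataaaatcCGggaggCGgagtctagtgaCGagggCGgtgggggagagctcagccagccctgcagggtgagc
Plxnb1, chr9:109095186-109095388, plus strand: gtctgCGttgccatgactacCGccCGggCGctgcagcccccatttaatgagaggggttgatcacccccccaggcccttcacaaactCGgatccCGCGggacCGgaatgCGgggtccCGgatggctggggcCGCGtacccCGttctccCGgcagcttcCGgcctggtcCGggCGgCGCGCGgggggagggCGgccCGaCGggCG

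The Srgap3 window of 250 bases held 7 CpG at 54.0% G and C, while the Plxnb1 window of 203 bases held 24 CpG at 72.9%. Neither window held ACGTG or CCACG on either strand, overlaps between the motifs being counted for both. Over all 32851 promoters of the RefSeq table, 16.6% held ACGTG and 28.3% held CCACG in the 250 bases before the start. Of the 71 promoters of the 55 guidance genes that the table matched, 16.9% held ACGTG and 47.9% held CCACG. The guidance promoters were also richer in CpG, with a median of 15.0 against 6.0 over all promoters. These are counts of letters in a fixed window and say nothing of binding.

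Srgap3 encodes a membrane-bending F-BAR protein that acts downstream of Robo receptors. It lies on chromosome 6 from 112717971 to 112947266 (GRCm38, minus strand, ENSMUSG00000030257). Its level was 61.2, 60.7, 69.3, 54.4 and 66.8 CPM in IRE1KO libraries 1 to 5, against 85.7, 100.5, 99.7 and 95.5 CPM in WT libraries 1 to 4. Every IRE1KO library was below every WT library, and WT library 1 was the lowest of its group. Its log2 fold change was -0.61 ± 0.076 SE, a level of 0.655 of WT (adjusted p = 0.0220, edgeR). Without any 1 library the log2 fold change stayed between -0.66 and -0.57, while the adjusted p ran from 0.00413 to 0.101 and was under 0.05 in 4 of those 9 fits. Without WT library 1 it was 0.00413 and without WT library 4 it was 0.0136. Limma voom called it as well.

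The other srGAPs differed less. Srgap2, which shapes membrane protrusions, was at 106, 112, 109, 105 and 112 CPM in IRE1KO, against 116, 115, 116 and 121 CPM in WT. Those ranges did not overlap, but the difference was small (log2 fold change -0.10 ± 0.035 SE) and did not pass (adjusted p = 0.205, edgeR). Srgap1 had 31.8 ± 2.08 CPM in IRE1KO cells (SD, n = 5), against 34.5 ± 2.83 CPM in WT cells (SD, n = 4), with overlapping groups. In CPM per kb of exon, which allows genes to be compared, Srgap3 was at 6.34 ± 0.591 in IRE1KO (SD, n = 5) and 9.68 ± 0.689 in WT (SD, n = 4). Srgap2, at 8.66 ± 0.247 CPM per kb in IRE1KO and 9.31 ± 0.240 CPM per kb in WT, stood beside Srgap3 in WT and above it in IRE1KO.

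Plxnb1 encodes plexin-B1, the receptor of Sema4d. It lies on chromosome 9 from 109095389 to 109119917 (GRCm38, plus strand, ENSMUSG00000053646). Its level was 11.5, 10.7, 11.1, 10.4 and 11.4 CPM in IRE1KO, against 14.0, 18.1, 17.7 and 23.9 CPM in WT. The IRE1KO libraries lay within 1.1 CPM of one another and below all WT libraries, of which library 1 was lowest and library 4 highest. The log2 fold change was -0.74 ± 0.13 SE, a level of 0.598 of WT (adjusted p = 0.0475, edgeR). This call was close to the threshold: without 1 library the adjusted p ran from 0.00502 to 0.146 and was under 0.05 in 2 of 9 fits, those without WT library 1 (0.00502) and without WT library 4 (0.0173). The log2 fold change kept its sign in all 9, from -0.85 to -0.59. Its ligand Sema4d was at 5.34, 6.14, 3.51, 5.24 and 4.27 CPM in IRE1KO cells and 3.06, 2.26, 4.45 and 5.75 CPM in WT, with overlapping groups. The summed level of 10 macrophage markers was 148 to 331 CPM in IRE1KO cells and 88.7 to 314 CPM in WT. IRE1KO library 3 and WT library 2 were the lowest of their groups for Sema4d and for that sum, while the highest libraries differed. The part of macrophages in the Sema4d values was not tested.

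**Figure D2:**
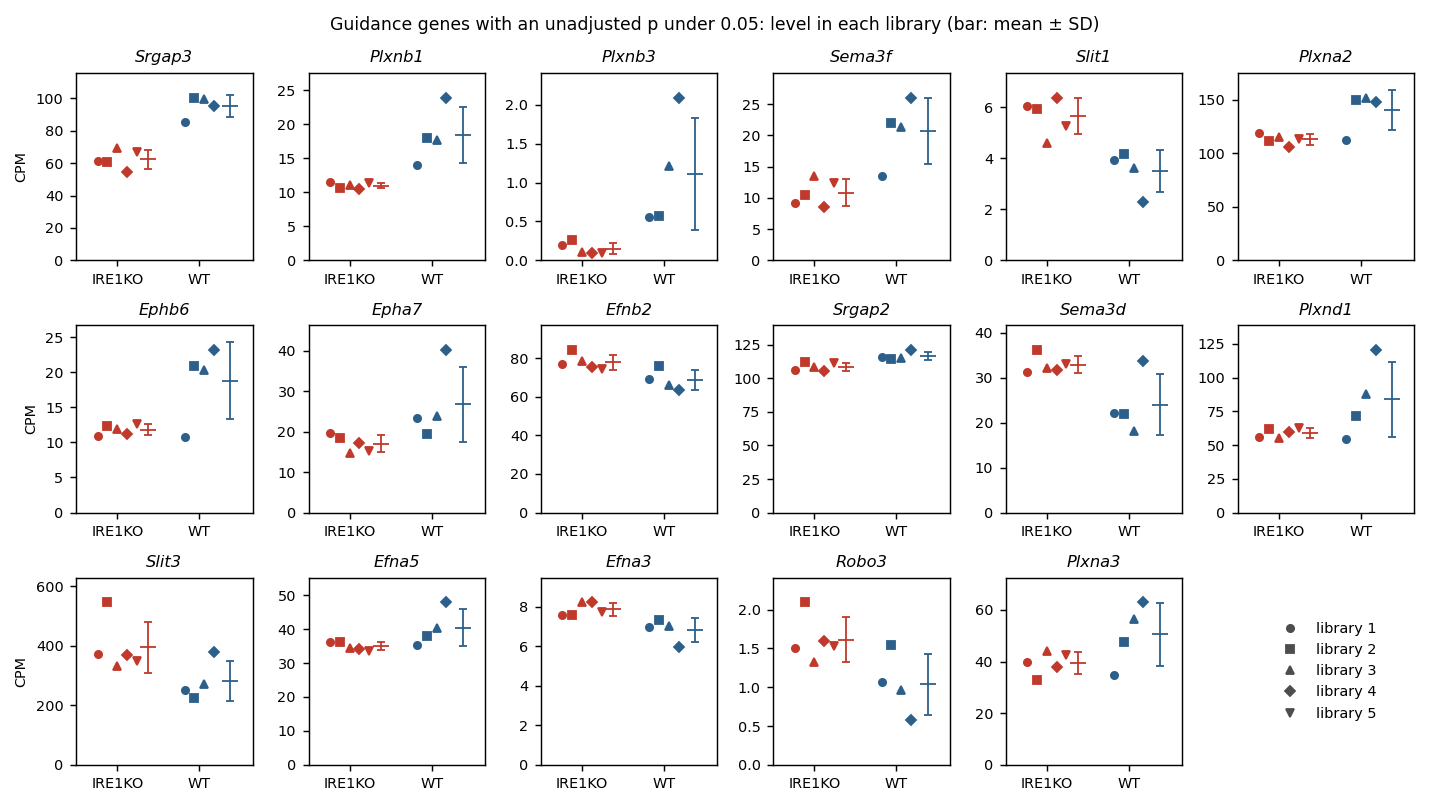
CPM in each library of the 17 guidance genes with an unadjusted p under 0.05, IRE1KO in red on the left and WT in blue on the right; symbols mark the library number and the bar beside each group is mean ± SD (n = 5 and n = 4). Srgap3, Plxnb1, Plxnb3, Srgap2, Slit1 and Efna3 show no overlap between groups, and WT library 1 of Ephb6, Plxna2 and Plxnd1 lies at the level of the IRE1KO libraries.

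Groups did not overlap for 6 of the 56 tested members (10.7%), against 6.93% of all tested genes. Srgap3, Plxnb1, Plxnb3 and Srgap2 were lower in IRE1KO and Slit1 and Efna3 were higher. Of the whole table, 3.28% were lower and 3.65% were higher without overlap. Plxnb3 came into the test only through its WT counts, so the filter itself favoured its lack of overlap.

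Among the 9 plexins, Plxnb1 was the gene that fell, and 8 had negative log2 fold changes (median -0.31), with Plxna1 near 0 and positive under limma voom. Plxnb3, on the X chromosome from 73757090 to 73772514, had the largest difference of any member. It was scarce, at 4, 5, 2, 2 and 2 counts in IRE1KO libraries, against 11, 11, 24 and 40 counts in WT libraries. It came into the test through its WT counts, since 3 counts, the floor used here, correspond to 0.137 to 0.159 CPM. The summed counts were 15 in IRE1KO and 86 in WT, a ratio of 0.134 after scaling with a 95% interval of 0.0717 to 0.233 that covers counting error only. The log2 fold change of -2.85 ± 0.53 SE missed the threshold (adjusted p = 0.0508, edgeR) and passed without WT library 1 (0.0133) or WT library 4 (0.0313). Plxnb3, a receptor of Sema5a, is known from oligodendrocytes and other glia. Among WT libraries, Plxnb3 was lowest in libraries 1 and 2 and highest in library 4, and Sox10 was lowest in library 1 and highest in library 4. That rank of WT library 4 was common: it was the highest of the 9 libraries for 31 of the 56 tested members. In WT library 1, Plxnb3 (0.562 CPM) exceeded all IRE1KO libraries (0.256 CPM or less), while Sox10 (0.970 CPM) did not. The part of glial cells in the Plxnb3 difference was not tested.

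Plexins of the A class, the signalling partners of neuropilins, were mixed in size. Plxna2 was at 119, 112, 115, 106 and 113 CPM in IRE1KO, against 112, 150.4, 152 and 148 CPM in WT. WT library 1 alone lay within the IRE1KO range, and the log2 fold change of -0.31 ± 0.086 SE (adjusted p = 0.140, edgeR) became -0.41 without it (adjusted p = 0.00294). Without WT library 4 the log2 fold change of Plxna2 was -0.29 (adjusted p = 0.132, edgeR). Plxna3 was at 39.7, 32.9, 44.1, 37.9 and 42.6 CPM in IRE1KO, against 34.8, 47.7, 56.5 and 63.1 CPM in WT, again with WT library 1 inside the IRE1KO range (log2 fold change -0.36 ± 0.16 SE, adjusted p = 0.301, edgeR; 0.0350 without WT library 1). Without WT library 4 the log2 fold change of Plxna3 was -0.24 (adjusted p = 0.437, edgeR). Plxna1, the most abundant of the class, was at 477 ± 27.7 CPM in IRE1KO (SD, n = 5) and 483 ± 98.6 CPM in WT (SD, n = 4), a log2 fold change of -0.02 ± 0.13 SE whose sign turned in 4 of 15 alternative fits. Plxnd1, the receptor that Sema3e binds without a neuropilin, was at 55.9, 61.7, 54.9, 59.9 and 62.5 CPM in IRE1KO cells and 54.8, 71.8, 87.9 and 121 CPM in WT. WT library 1 lay just below the IRE1KO range and the other WT libraries above it, and the log2 fold change of -0.51 ± 0.19 SE did not pass (adjusted p = 0.234, edgeR) unless WT library 1 was left out (0.0343). Without WT library 4 it shrank to -0.28 (adjusted p = 0.282).

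Plxnb2, a plexin of broad expression, was the most abundant guidance gene per kb of exon, at 76.0 ± 2.84 CPM per kb in IRE1KO (SD, n = 5) and 78.0 ± 0.730 CPM per kb in WT (SD, n = 4). Its libraries lay close together, at 573, 574, 595, 569.8 and 622 CPM in IRE1KO, against 600.0, 611, 598 and 600.3 CPM in WT (log2 fold change -0.04 ± 0.041 SE, adjusted p = 0.674, edgeR). The 3 plexins of the B class therefore differed in their values: Plxnb2 by -0.04 on the log2 scale, Plxnb1 by -0.74 and Plxnb3 by -2.85, all lower in IRE1KO. Whether these differences differ from one another was not tested. Plxna4 and Plxnc1, the receptor of Sema7a, had log2 fold changes of -0.08 ± 0.24 SE and 0.18 ± 0.18 SE, the positive one being the exception among the plexins. Nrp1 and Nrp2, the neuropilins, did not pass (log2 fold changes -0.06 ± 0.063 SE and -0.18 ± 0.11 SE, adjusted p = 0.643 and 0.417, edgeR). Nrp1 was at 174 ± 11.3 CPM in IRE1KO cells and 182 ± 13.0 CPM in WT, and Nrp2 at 135 ± 13.6 CPM in IRE1KO cells and 153 ± 21.7 CPM in WT (SD, n = 5 and n = 4).

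None of the 18 tested semaphorins passed over all genes in edgeR, where 2 had an unadjusted p under 0.05. DESeq2 called Sema3f and limma voom called none. Sema3f, a secreted ligand of neuropilin-2, lies on chromosome 9 from 107681500 to 107710475. It was at 9.22, 10.4, 13.5, 8.57 and 12.4 CPM in IRE1KO, against 13.4, 21.97, 21.3 and 26.0 CPM in WT. IRE1KO library 3 just exceeded WT library 1, the sole overlap between the groups. On the log2 scale the change was -0.93 ± 0.20 SE (adjusted p = 0.0755, edgeR), and -1.09 with an adjusted p of 0.00761 without WT library 1. Without WT library 4 it was -0.81 (adjusted p = 0.0678, edgeR).

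Sema3d, a secreted class 3 ligand, went the other way. It was at 31.4, 36.2, 32.2, 31.8 and 33.0 CPM in IRE1KO, against 22.1, 22.02, 18.1 and 33.8 CPM in WT. WT library 4 lay among the IRE1KO libraries and the other WT libraries lay below them. Sema3d had a log2 fold change of 0.46 ± 0.16 SE (adjusted p = 0.205, edgeR), and 0.67 without WT library 4 (adjusted p = 0.00621). Without WT library 1 it was 0.42 (adjusted p = 0.168, edgeR). Sema3d, Sema3a, Sema3e and Sema3c lie in that order on chromosome 5 between positions 12383385 and 17730268.

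Sema3a, the osteoprotective ligand, was at 197, 179.7, 222, 173 and 216 CPM in IRE1KO, against 282, 268, 249 and 167 CPM in WT. WT libraries 1 to 3 exceeded all IRE1KO libraries and WT library 4 was below them. The log2 fold change of -0.29 ± 0.15 SE did not pass (adjusted p = 0.355, edgeR), while leaving out WT library 4 gave -0.43 (adjusted p = 0.0362). Of the 9 fits that left out 1 library, only that 1 passed. The log2 fold change in them ran from -0.43 to -0.21, with an adjusted p of up to 0.564 (edgeR). Sema3c, known for its part in heart outflow development, was the most abundant semaphorin per kb at 47.6 ± 1.86 CPM per kb in IRE1KO (SD, n = 5) and 45.8 ± 14.7 CPM per kb in WT (SD, n = 4), with a log2 fold change of 0.06 ± 0.20 SE. Sema3e, the plexin-D1 ligand, held between 62.3 and 93.4 CPM in IRE1KO, while its WT libraries ran from 30.2 CPM in library 4 to 138 CPM in library 1.

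The transmembrane classes 4, 5 and 6 were lower per kb than Sema3c. No member reached an unadjusted p under 0.05 in edgeR, DESeq2 or limma voom. Sema4c led class 4 at 5.09 ± 0.149 CPM per kb in IRE1KO and 5.47 ± 1.148 CPM per kb in WT, and Sema6c led class 6 at 2.59 ± 0.252 CPM per kb in IRE1KO and 2.72 ± 0.819 CPM per kb in WT (SD, n = 5 and n = 4). All 4 class 6 genes had negative log2 fold changes, from -0.50 for Sema6b to -0.07 for Sema6c, with Sema6a at -0.35 ± 0.17 SE and Sema6d at -0.11 ± 0.15 SE (adjusted p = 0.335 and 0.737, edgeR). Sema6c turned positive without WT library 4. In class 4 the smallest p was that of Sema4g (log2 fold change -0.20 ± 0.11 SE, adjusted p = 0.406, edgeR), and the most abundant genes by CPM, Sema4c and Sema4b, had log2 fold changes of -0.10 ± 0.12 SE and -0.21 ± 0.14 SE. Sema4a, Sema4f and the class 3 gene Sema3b had log2 fold changes of -0.00 ± 0.30 SE, 0.11 ± 0.23 SE and -0.10 ± 0.21 SE. Sema5a, a ligand of plexin-B3, was at 24.2, 34.4, 27.4, 21.97 and 28.6 CPM in IRE1KO cells and 18.9, 23.1, 29.3 and 52.4 CPM in WT. Sema7a, the lipid-anchored ligand of plexin-C1, was at 75.6, 57.2, 64.9, 70.6 and 68.4 CPM in IRE1KO cells and 80.2, 65.5, 39.5 and 24.0 CPM in WT. The WT libraries enclosed the IRE1KO range for both genes, with WT library 4 highest for Sema5a and lowest for Sema7a (log2 fold changes -0.18 ± 0.27 SE and 0.36 ± 0.29 SE, adjusted p = 0.780 and 0.570, edgeR).

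**Figure D3:**
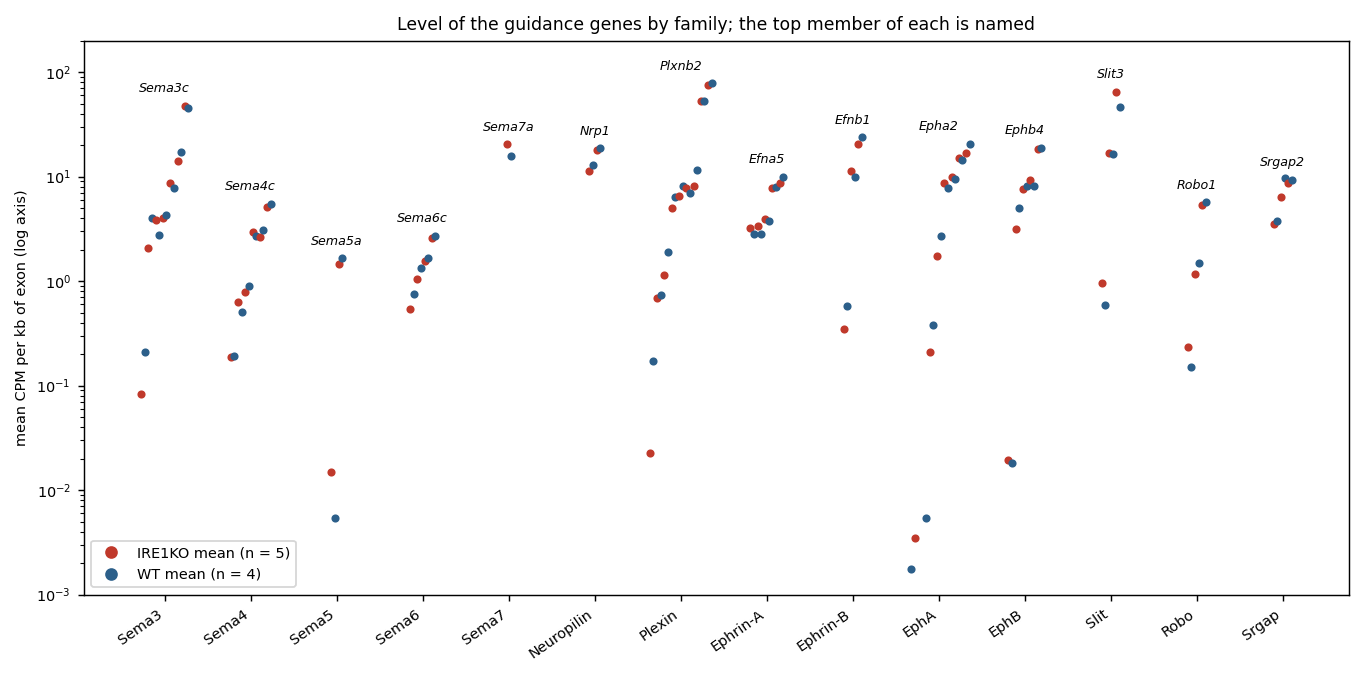
Mean CPM per kb of exon on a log axis for the guidance genes of each family, with IRE1KO means in red and WT means in blue; means of 0 are not drawn, and the member with the highest mean over all libraries is named. Plxnb2 tops the plexins at 76.0 in IRE1KO and 78.0 in WT, and Slit3 tops the Slits at 65.0 in IRE1KO and 46.4 in WT.

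Among the ephrins, none of 8 tested genes passed over all genes in edgeR, DESeq2 or limma voom, and 3 had an unadjusted p under 0.05 in edgeR. Efnb2, the ephrin-B2 of bone, was at 77.1, 84.2, 78.3, 75.3 and 74.1 CPM in IRE1KO, against 69.2, 75.7, 66.1 and 63.4 CPM in WT. WT library 2 alone reached the IRE1KO range, and the log2 fold change was 0.18 ± 0.059 SE (adjusted p = 0.191, edgeR). Efnb1, whose human counterpart is mutated in craniofrontonasal syndrome, was the most abundant ephrin per kb, at 20.5 ± 1.40 CPM per kb in IRE1KO (SD, n = 5) and 23.7 ± 5.54 CPM per kb in WT (SD, n = 4), with a log2 fold change of -0.21 ± 0.13 SE (adjusted p = 0.459, edgeR).

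The lipid-anchored ephrin-A ligands split in direction. Efna3 was at 7.57, 7.58, 8.23, 8.25 and 7.77 CPM in IRE1KO, against 6.997, 7.34, 7.02 and 5.96 CPM in WT, with no overlap but a small difference (log2 fold change 0.21 ± 0.084 SE, adjusted p = 0.260, edgeR). Efna5 was at 36.2, 36.3, 34.4, 34.2 and 33.7 CPM in IRE1KO, against 35.2, 37.98, 40.4 and 48.0 CPM in WT, where WT library 1 lay in the IRE1KO range (log2 fold change -0.21 ± 0.081 SE, adjusted p = 0.242, edgeR; -0.12 and 0.253 without WT library 4). Efna1, Efna3 and Efna4 are neighbours on chromosome 3 between 89271733 and 89338028, and their log2 fold changes were 0.25 ± 0.23 SE, 0.21 ± 0.084 SE and -0.03 ± 0.062 SE. The remaining ephrins, Efna2 and Efnb3, were at 0.07 ± 0.12 SE and -0.72 ± 0.41 SE. Exons of Efna3, Efna4 and 14 other members, Srgap3 and Plxnb1 among them, overlap another GENCODE M21 gene. For Srgap3 and Plxnb1 the overlaps are 150 and 257 bases with a gene of the opposite strand. The strand setting of the counting is not given in the sources used here.

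None of the 10 tested Eph receptors passed over all genes in edgeR, where 2 had an unadjusted p under 0.05, and DESeq2 called those 2, Epha7 and Ephb6, while limma voom called none. Ephb6, an Eph receptor without kinase activity, was at 10.9, 12.4, 11.95, 11.2 and 12.7 CPM in IRE1KO, against 10.8, 20.9, 20.3 and 23.2 CPM in WT. WT library 1 was below every IRE1KO library and the other WT libraries were well above them. With all libraries the log2 fold change was -0.67 ± 0.19 SE (adjusted p = 0.153, edgeR), and without WT library 1 it was -0.86 (adjusted p = 0.00135). Without WT library 4 it was -0.55 (adjusted p = 0.164, edgeR). Epha7, a receptor of A-type ephrins, was at 19.8, 18.3, 14.8, 17.3 and 15.1 CPM in IRE1KO, against 23.3, 19.4, 24.0 and 40.2 CPM in WT. WT library 2 lay within the IRE1KO range and WT library 4 stood far above the rest (log2 fold change -0.65 ± 0.20 SE, adjusted p = 0.174, edgeR; -0.38 and 0.0957 without WT library 4).

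Ephb4, the partner of ephrin-B2, and Epha2 were the most abundant Eph receptors per kb. Ephb4 was at 18.4 ± 0.890 CPM per kb in IRE1KO (SD, n = 5) and 19.003 ± 2.95 CPM per kb in WT (SD, n = 4). Epha2 was at 16.7 ± 2.20 CPM per kb in IRE1KO and 20.7 ± 6.24 CPM per kb in WT, a gap smaller than the WT spread (log2 fold changes -0.05 ± 0.091 SE and -0.31 ± 0.20 SE, adjusted p = 0.840 and 0.480, edgeR). Ephb2, a receptor of B-type ephrins, was at 112, 118, 113, 122.9 and 119.6 CPM in IRE1KO, against 81.4, 81.6, 104 and 140.3 CPM in WT. Leaving out WT library 4, the highest of all, moved its log2 fold change from 0.20 to 0.40 and its adjusted p from 0.528 to 0.0406 (edgeR). Of the 9 fits that left out 1 library, only that 1 passed, and the adjusted p ran up to 0.7435 (edgeR). Epha4 was at 80.9, 88.2, 72.4, 79.7 and 77.8 CPM in IRE1KO, against 112, 65.1, 61.5 and 69.6 CPM in WT, so that WT library 1 alone exceeded the IRE1KO libraries. Leaving that library out gave a log2 fold change of 0.29 (adjusted p = 0.0377), against 0.05 (adjusted p = 0.909) with all libraries (edgeR). For Epha4 too, this was the only 1 of the 9 such fits to pass, and the log2 fold change ran down to -0.04. Epha1, Epha3, Epha5 and Ephb3 had log2 fold changes of 0.04 ± 0.14 SE, 0.18 ± 0.33 SE, -0.86 ± 0.44 SE and -0.11 ± 0.20 SE and overlapping groups.

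The 3 Slits had positive log2 fold changes, of which that of Slit2, 0.05 ± 0.16 SE, changed sign when 1 library was left out. None passed over all genes in edgeR, where 2 had an unadjusted p under 0.05. DESeq2 called Slit1 and limma voom called none. Slit1, on chromosome 19 from 41600257 to 41743665, was at 6.07, 5.94, 4.62, 6.38 and 5.27 CPM in IRE1KO, against 3.93, 4.16, 3.64 and 2.30 CPM in WT. All 5 IRE1KO values exceeded all 4 WT values (log2 fold change 0.69 ± 0.18 SE, adjusted p = 0.122, edgeR). Slit3, which has been studied in mouse bone as a signal between bone cells and vessels, was at 374, 547, 331, 369 and 349.8 CPM in IRE1KO, against 252, 224, 271 and 379 CPM in WT. IRE1KO library 2 stood above its group and WT library 4 above its own, and the log2 fold change of 0.49 ± 0.19 SE did not pass (adjusted p = 0.240, edgeR). Per kb of exon, Slit3 was at 65.0 ± 14.4 CPM per kb in IRE1KO and 46.4 ± 11.2 CPM per kb in WT, ahead of Slit2 at 17.0 ± 2.74 CPM per kb in IRE1KO and 16.5 ± 3.62 CPM per kb in WT (SD, n = 5 and n = 4).

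The Slit receptors were lower per kb than Slit3. Robo1 led at 5.39 ± 0.371 CPM per kb in IRE1KO and 5.69 ± 0.996 CPM per kb in WT (SD, n = 5 and n = 4). Robo2 was at 17.7, 21.6, 19.2, 21.9 and 19.6 CPM in IRE1KO cells and 19.97, 14.7, 19.2 and 47.3 CPM in WT, where WT library 4 stood apart (log2 fold change -0.34 ± 0.30 SE, adjusted p = 0.610, edgeR). Robo3, a divergent Robo that in mammals lacks strong Slit binding, was at 1.504, 2.10, 1.33, 1.60 and 1.53 CPM in IRE1KO, against 1.07, 1.54, 0.960 and 0.575 CPM in WT, with overlap through WT library 2 (log2 fold change 0.63 ± 0.27 SE, adjusted p = 0.276, edgeR). None of the 3 Robo genes passed in edgeR, DESeq2 or limma voom, and 1 had an unadjusted p under 0.05 in each.

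The 6 members that were not tested were scarce. Epha10, with 1 count, Epha8, with 2, and Epha6, with 2, were at or under 3 counts over all 9 libraries together. Ephb1 had 14 counts in IRE1KO and 10 in WT, and Sema5b had 11 counts in IRE1KO and 3 in WT. Sema3g had 39 counts in IRE1KO and 74 in WT, 44 of them in WT library 4.

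**Figure D4:**
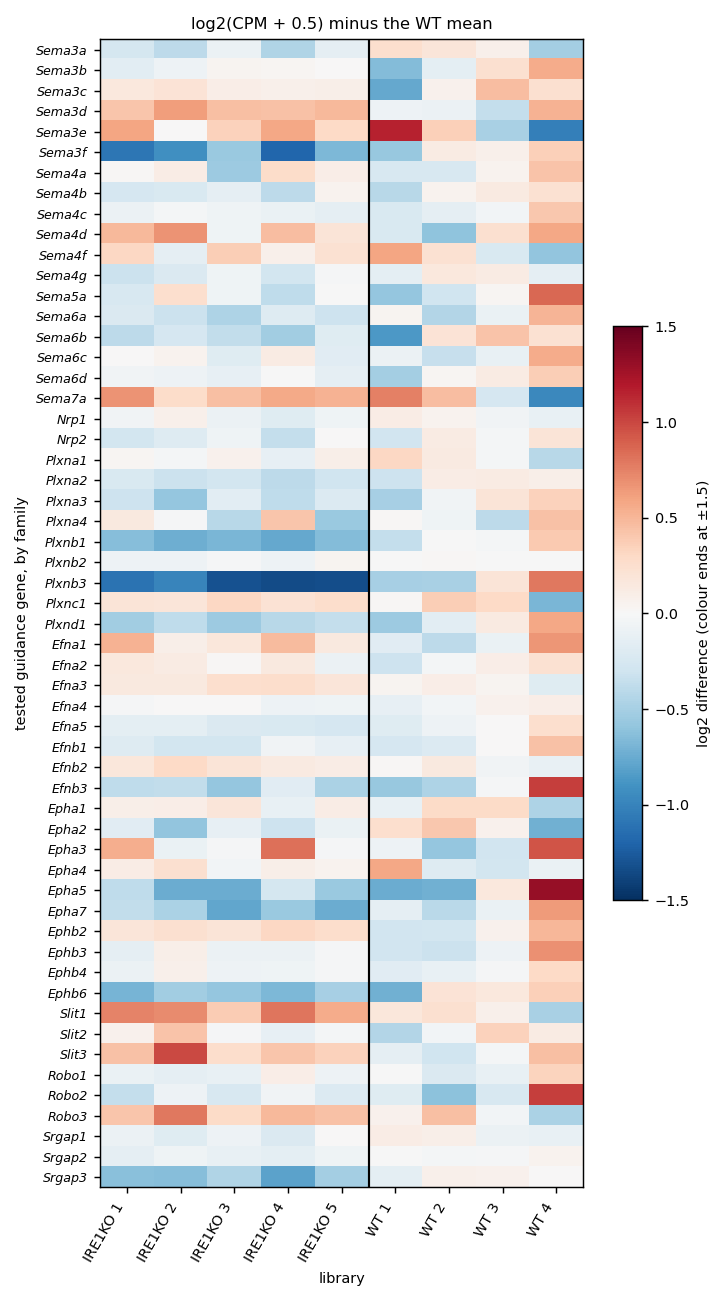
Difference of log2(CPM + 0.5) from the WT mean for the 56 tested guidance genes in each library, IRE1KO libraries left of the line and WT libraries right of it; red is higher and blue lower, and colours end at ±1.5. The IRE1KO columns resemble one another, and WT library 4 has the highest level of all 9 libraries for 31 of the 56 genes.

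Guidance genes varied more between WT libraries than between IRE1KO libraries. The SD of log2(CPM + 0.5) had a median of 0.116 over the IRE1KO libraries and 0.369 over the WT libraries, and it was larger in WT for 52 of 56 members (92.9%). Over all tested genes the medians were 0.0756 in IRE1KO and 0.159 in WT, and 82.8% were wider in WT. WT library 4 was the highest of the 9 libraries for 31 members (55.4%) and the lowest for 12 (21.4%), against 30.5% and 30.5% of all tested genes. Epha5 had the widest WT range, with WT library 4 at 13.6 CPM and the other WT libraries at 2.91, 2.98 and 5.91 CPM, 4.69 times from lowest to highest. Sema3e spanned 4.56 times and Efnb3, a ligand of B-type Eph receptors, 4.15 times within WT.

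The members called also followed the libraries included. Without WT library 1, 10 of 57 tested members passed (17.5%), against 8.63% of all tested genes, with Ephb6, Plxna2, Plxna3, Plxnb1, Plxnb3, Plxnd1, Sema3f, Sema6b and Srgap3 lower in IRE1KO and Epha4 higher. Without WT library 4, 6 of 56 passed (10.7%), against 2.90% of all tested genes, with Plxnb1, Plxnb3, Sema3a and Srgap3 lower and Ephb2 and Sema3d higher. Without any other library, 0 or 1 member passed and 12 to 18 had an unadjusted p under 0.05 (edgeR), and the member was Srgap3. Over all tested genes, 2 to 8 passed in those fits (0.0146% to 0.0587%) and 1607 to 2057 had an unadjusted p under 0.05. DESeq2 called 8 members (14.3%), against 4.14% of all tested genes: Epha7, Ephb6, Plxna2, Plxnb1, Plxnb3, Sema3f and Srgap3 lower in IRE1KO and Slit1 higher. Limma voom called Srgap3 (1.79% of members), against 0.117% of all tested genes. Plxnb3, counted under DESeq2 and without WT library 1 or 4, came into the test only through its WT counts.

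**Figure D5:**
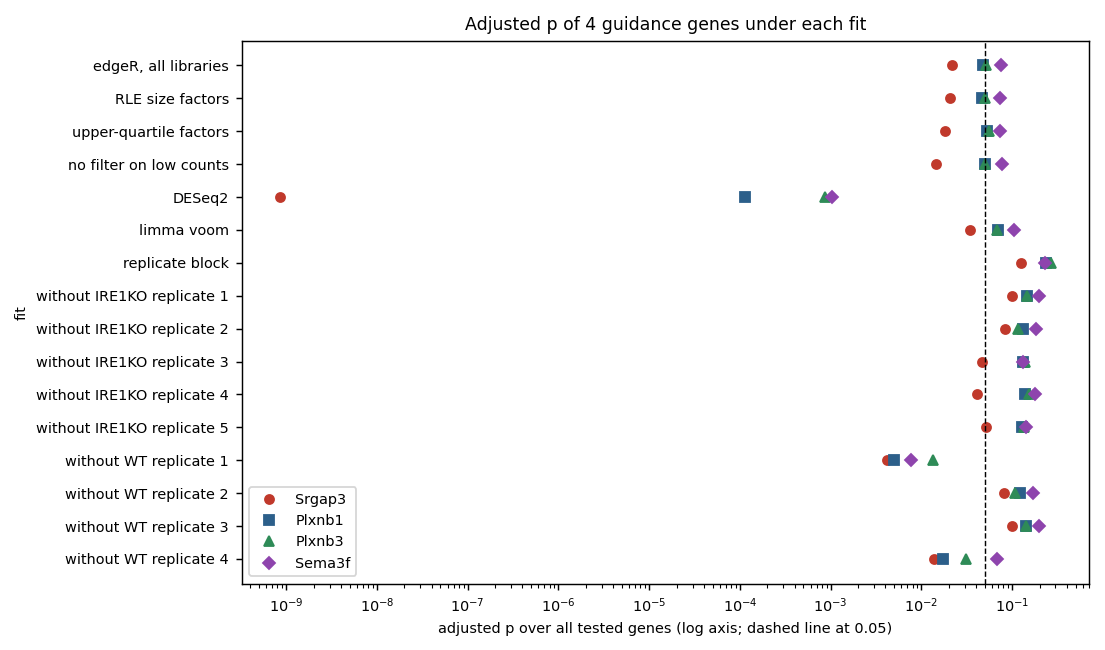
Adjusted p over all tested genes, on a log axis, of Srgap3, Plxnb1, Plxnb3 and Sema3f under the edgeR fit of all libraries and 15 alternatives; the dashed line is at 0.05. Srgap3 lies left of the line in 10 of the 16 fits, and the points move furthest left under DESeq2 and without WT library 1.

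Other genes of these pathways were read from a list of 92 co-receptors, netrin-family genes and cytoplasmic effectors, of which 85 were tested. In edgeR, Enah and Cntn2 rose and none fell, 2 of 85 or 2.35%, against 0.634% of all tested genes. Cntn2 came into the test through its IRE1KO counts, and without the filter on low counts 0 of 91 passed, against 45 of 17797 genes. In that fit 21 of the list and 2551 of all genes had an unadjusted p under 0.05. DESeq2 called 6 of 85 (7.06%), against 4.14% of all tested genes, adding Ptk7 and Pdzrn3 higher and L1cam and Neo1 lower. Limma voom called none, with 19 at an unadjusted p under 0.05, against 2185 of 13712 tested genes. The list's median log2 fold change was -0.01, against -0.0050 over all tested genes. Enah encodes Mena, an actin regulator that binds the Robo tail, and was at 213, 220.3, 202, 206 and 211 CPM in IRE1KO, against 183, 169, 161 and 147 CPM in WT. The groups did not overlap (log2 fold change 0.35 ± 0.061 SE, adjusted p = 0.0475, edgeR). Cntn2, an axonal adhesion protein, was scarce at 0.945 ± 0.188 CPM in IRE1KO (SD, n = 5), against 0.333 ± 0.0504 CPM in WT (SD, n = 4), with 16 to 25 counts per library in IRE1KO and 6 to 8 in WT. Its log2 fold change was 1.49 ± 0.23 SE (adjusted p = 0.0436, edgeR; 0.05001 without the filter, just over the threshold). Without 1 library the adjusted p of Enah ran from 0.00616 to 0.146 and that of Cntn2 from 0.0135 to 0.142, and each was under 0.05 in 2 of 9 fits.

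Next in that list came L1cam, a co-receptor of neuropilin-1, which was chosen after its value was seen. It was at 2.23, 3.79, 3.61, 2.19 and 3.12 CPM in IRE1KO, against 3.73, 13.1, 12.2 and 16.7 CPM in WT. WT library 1 lay in the IRE1KO range, and the log2 fold change of -1.94 ± 0.38 SE did not pass (adjusted p = 0.0613, edgeR), while edgeR without WT library 1 and DESeq2 called it lower in IRE1KO. Without WT library 4, edgeR did not call it. L1cam is also a gene of Schwann cells. The summed level of 12 glial markers was 159 to 186.1 CPM in IRE1KO cells and 186.3 to 285 CPM in WT, 1 of the 9 tested markers (Ngfr) fell, and none was at 0 in all libraries. The lowest WT sum was that of library 1 and the highest that of library 4. The part of glial cells in the values of Plxnb3, Ephb6, Sema3f, Srgap3 and L1cam was not tested. Endothelial markers, 11 genes, summed to 22.6 to 26.8 CPM in IRE1KO cells and 24.6 to 38.7 CPM in WT. Tie1 and Cldn5 among them had 0 counts in every library. Of the 8 tested, Pecam1, which came into the test through its WT counts at 0.924 CPM or less, fell and none rose. The log2 fold changes of the others ran from -1.05 for Erg to 0.87 for Flt1 (adjusted p = 0.318 and 0.199, edgeR). Adipocyte markers summed to 56.4 to 63.9 CPM in IRE1KO cells and 81.6 to 142 CPM in WT over 8 genes, of which 3 fell and Cidec was at 0. The part of either cell type in the guidance values was not tested.

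None of the members lies near Ern1 on chromosome 11. The members on that chromosome are Efnb3, 36.8 Mb from it, and Slit3, 70.7 Mb from it.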

How the data were processed

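The authors deposited 1 table of raw counts, unnormalized whole numbers for each gene in each library. Per the submitters' processing notes, STAR, limma and the mm10 build were used. How reads were assigned to genes, with which annotation and strand option, is not given in the sources used here. Per the labels' protocols, polyadenylated RNA gave strand-marked libraries, made and sequenced in 1 batch.

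The fit covered the whole table, all 9 libraries with genotype as the sole term. edgeR 4.0.16 in R 4.3.3 was used: filterByExpr kept 13712 genes, libraries were scaled by TMM, and the quasi-likelihood test with robust dispersion was adjusted by Benjamini-Hochberg at 0.05. SE is the log2 fold change divided by the root of its F. Alternatives used limma 3.58.1 and DESeq2 1.42.0. Files were read in Python 3.11.15 with pandas 2.3.3, NumPy 2.4.6 and SciPy 1.17.1, and figures were drawn with matplotlib 3.10.9. The steps were tested on simulated counts that gave each gene the same dispersion in both groups. The simulation lacked the wider spread of the WT libraries, so it does not check the p-values under that spread.

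Exon lengths and positions came from GENCODE M21 (GRCm38, the assembly of mm10) by Ensembl identifier; the authors' annotation may differ, and lengths are the union of all exons. The members and lists were chosen with earlier results of these data known. Tests are printed for members with an unadjusted p under 0.05 and for the smallest p and 2 highest mean CPM of each family, and levels in every library for the first of these. A few genes outside this rule were named after their values were seen. Of 187 listed genes, 182 were matched by symbol and 5 by identifier. Same-numbered libraries were not treated as pairs.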

Additional observations from a re-analysis of the deposited data

Results flagged for a closer look

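In 5 of 112 groups of tested guidance genes, 1 library stood apart from the rest of its group by Dixon's test at the 95% level, where chance flags about 1 in 20 groups. Slit3 was at 547 CPM in IRE1KO library 2, against 331 to 374 CPM in the other IRE1KO libraries. Robo1 was at 99.8 CPM in IRE1KO library 4, against 84.9 to 87.9 CPM in the others. Epha4 was at 112 CPM in WT library 1, against 61.5 to 69.6 CPM in the other WT libraries. Plxna2 was at 112 CPM in WT library 1, against 148 to 152 CPM in the others. Robo2 was at 47.3 CPM in WT library 4, against 14.7 to 19.97 CPM in the others. The cause was not tested.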

How the results depend on the processing

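With all libraries, 2 guidance members, 2 other guidance genes and 87 of all tested genes passed. RLE size factors gave 2, 2 and 87. With upper-quartile factors 1 member (Srgap3), 2 others and 46 genes passed; without a filter on low counts it was 1, 0 and 45; with limma voom 1, 0 and 16; with DESeq2 8, 6 and 568. Leaving out 1 library at a time gave 0 to 10 members, 0 to 9 others and 2 to 1192 genes, the highest without WT library 1. With the replicate number as a block, and IRE1KO library 5 left out, 0 members, 0 others and 0 genes passed in edgeR, where 13 members and 1594 genes had an unadjusted p under 0.05. Deviations of same-numbered libraries correlated from -0.23 to 0.50. IRE1KO libraries 1 and 4 correlated best with the WT library of their own number, and IRE1KO libraries 2 and 3 did not. The correlations cannot decide whether the numbers pair the libraries, since the deviations were taken within groups of 4 or 5. Srgap3 and Plxnb1 were lower in IRE1KO under all 15 alternatives. Signs under the alternatives were read only for members within the printing rule given above, so other tested members may change sign too. Of the members read and not called with all libraries, these changed sign when 1 library was left out: Sema5a (-0.36 to 0.20), Sema3c (-0.14 to 0.22), Sema4c (-0.18 to 0.0503), Sema6d (-0.26 to 0.02), Sema6c (-0.19 to 0.15), Plxna1 (-0.14 to 0.0899, and 0.0053 with limma voom), Epha4 (-0.0417 to 0.29), Ephb4 (-0.10 to 0.0666), Slit2 (-0.0799 to 0.17), Robo1 (-0.15 to 0.0475) and Robo2 (-0.53 to 0.15), log2 fold changes of IRE1KO over WT. The causes were not tested. Scaling moved the median log2 fold change of all genes to -0.01 at most. Depth limits Plxnb3, Cntn2 and the untested members, and 3 counts correspond to 0.137 to 0.159 CPM.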
